A study of Mus musculus with 2 samples.

Results

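The canonical histone genes encode the linker histone H1 and the core histones H2A, H2B, H3 and H4 that are made in bulk while DNA is copied. The members were all protein-coding genes of the GENCODE mouse annotation (release 21, assembly mm10) whose symbols begin with Hist1h, Hist2h, Hist3h or Hist4h, which gave 67 of 21851 protein-coding genes. The Hist1 cluster holds 54 of them on chromosome 13 (chr13:21715763-23934851), the Hist2 cluster 10 on chromosome 3 (chr3:96219865-96270132), the Hist3 cluster 2 on chromosome 11 (chr11:58948920-58956830), and Hist4h4 stands alone on chromosome 6 (chr6:136801553-136804415). By class they were 6 H1, 18 H2A, 18 H2B, 12 H3 and 13 H4 genes. They were chosen by gene name. DNase-seq, which maps DNA that the enzyme DNase I can cut in intact nuclei, was done on the gastrocnemius muscle of male B6CASTF1/J mice aged 36 days, in 2 libraries. B6CASTF1/J animals are first-generation hybrids of the C57BL/6J and CAST/EiJ strains. The labels number the libraries as separate biological replicates and describe separate males, but give both the same donor ID, so the spread between the libraries may not be that between animals. They form 1 group, and no treatment, mutation or other group was compared, so no test between conditions was possible and every value below is a description. The nuclei came from whole muscle, so cell types are mixed, and fewer cells of a type and a weaker signal per cell cannot be told apart.

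Canonical histone genes are known as replication-dependent: they are transcribed mainly in S phase, their mRNAs end in a stem-loop in place of a poly(A) tail, and they lie in clusters in which H2A and H2B genes often share an intergenic stretch as a head-to-head pair. In dividing cells NPAT gathers at these clusters in histone locus bodies, HINFP binds the H4 promoters, and the octamer factor OCT1 (Pou2f1) acts on H2B promoters. Myonuclei of mature muscle fibres have left the cell cycle, and their chromatin is maintained with replacement histones, whose genes lie outside the clusters and give polyadenylated mRNAs.

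The sequences that carry the main observations are given first. Most of the H4 promoters held the letters GGTCCG, and in the H4 promoters a deposited footprint, a short stretch protected from DNase I within an open region, often lay over them. GGTCCG was chosen after the footprints had been seen. The 11 H4 promoters with a match are listed below with 20 bases before the match and 14 after it, 5′ to 3′ on the gene's strand, from the RefSeq promoter table of GRCm38.p6, and capitals mark GGTCCG. These letters are those of the reference strain, not of the CAST/EiJ alleles. They lie at chr13:23698485-23698524 (minus strand) for Hist1h4c, chr13:23581501-23581540 (plus strand) for Hist1h4d, chr13:22041389-22041428 (minus strand) for Hist1h4i, chr13:23531019-23531058 (plus strand) for Hist1h4h and chr6:136804444-136804483 (minus strand) for Hist4h4, the members with the highest peaks among those listed.
Hist1h4c: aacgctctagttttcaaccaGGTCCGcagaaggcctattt
Hist1h4d: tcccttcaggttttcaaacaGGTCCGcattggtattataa
Hist1h4i: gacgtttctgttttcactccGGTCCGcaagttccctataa
Hist1h4h: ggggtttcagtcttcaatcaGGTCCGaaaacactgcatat
Hist4h4: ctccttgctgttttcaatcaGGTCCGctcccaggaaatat
Hist1h4b: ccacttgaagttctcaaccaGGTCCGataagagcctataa
Hist1h4f: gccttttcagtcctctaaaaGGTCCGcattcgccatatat
Hist1h4k: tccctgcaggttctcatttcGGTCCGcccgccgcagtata
Hist1h4j: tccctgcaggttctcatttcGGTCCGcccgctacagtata
Hist1h4m: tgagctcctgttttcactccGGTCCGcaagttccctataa
Hist1h4n: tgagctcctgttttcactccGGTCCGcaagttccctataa
Counting from the first G of GGTCCG back, the bases G and T at positions -11 and -10 and T and C at positions -7 and -6 were the same in all 11 windows, and A at position -5 in 10 of them. Hist1h4m and Hist1h4n are near-identical copies and the windows of Hist1h4k and Hist1h4j are much alike, so the windows are not independent.

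The promoters of the highest-ranked member of each class and of Hist4h4 are shown whole from 250 bases to 1 base before the RefSeq start site, 5′ to 3′ on the gene's strand, to show where footprints fell. Here capitals mark bases inside a footprint in both libraries. Their positions are chr13:23698459-23698708 (minus strand) for Hist1h4c, chr6:136804432-136804681 (minus strand) for Hist4h4, chr13:23562386-23562635 (minus strand) for Hist1h3e, chr3:96240375-96240624 (minus strand) for Hist2h2aa2, chr3:96269450-96269699 (plus strand) for Hist2h2bb and chr13:23622559-23622808 (minus strand) for Hist1h1e.
Hist1h4c: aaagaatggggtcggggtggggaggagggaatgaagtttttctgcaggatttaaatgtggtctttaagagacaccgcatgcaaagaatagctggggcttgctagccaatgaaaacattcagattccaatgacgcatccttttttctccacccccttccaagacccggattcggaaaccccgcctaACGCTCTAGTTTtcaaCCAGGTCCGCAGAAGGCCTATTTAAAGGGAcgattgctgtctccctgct
Hist4h4: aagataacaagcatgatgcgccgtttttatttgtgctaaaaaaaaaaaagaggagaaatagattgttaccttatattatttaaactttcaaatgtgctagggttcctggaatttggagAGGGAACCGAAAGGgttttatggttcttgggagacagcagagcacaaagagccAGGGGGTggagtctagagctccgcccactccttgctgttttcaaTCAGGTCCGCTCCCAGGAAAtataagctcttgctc
Hist1h3e: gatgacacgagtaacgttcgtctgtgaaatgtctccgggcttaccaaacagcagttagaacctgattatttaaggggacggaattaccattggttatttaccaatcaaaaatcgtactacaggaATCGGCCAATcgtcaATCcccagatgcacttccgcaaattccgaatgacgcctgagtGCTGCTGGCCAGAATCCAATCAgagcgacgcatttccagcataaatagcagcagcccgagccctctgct
Hist2h2aa2: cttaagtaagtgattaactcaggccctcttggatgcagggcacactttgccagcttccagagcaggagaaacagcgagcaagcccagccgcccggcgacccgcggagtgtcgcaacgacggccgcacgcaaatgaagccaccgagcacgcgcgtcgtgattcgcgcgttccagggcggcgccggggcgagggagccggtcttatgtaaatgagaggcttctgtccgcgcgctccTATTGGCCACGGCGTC
Hist2h2bb: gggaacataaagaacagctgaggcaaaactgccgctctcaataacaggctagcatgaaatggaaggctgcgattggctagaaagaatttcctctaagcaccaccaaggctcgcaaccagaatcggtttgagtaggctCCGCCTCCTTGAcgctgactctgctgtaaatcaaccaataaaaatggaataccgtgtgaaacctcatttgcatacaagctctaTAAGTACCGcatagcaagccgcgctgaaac
Hist1h1e: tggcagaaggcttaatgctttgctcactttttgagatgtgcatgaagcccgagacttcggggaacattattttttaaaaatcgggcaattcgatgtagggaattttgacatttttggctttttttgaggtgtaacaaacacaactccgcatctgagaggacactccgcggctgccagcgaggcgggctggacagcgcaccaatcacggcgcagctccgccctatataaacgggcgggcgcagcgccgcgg
In Hist1h4c and Hist4h4 a footprint of both libraries lay over the GGTCCG letters, close to the start site. Of the 250 bases shown, footprints of both libraries covered 42 in Hist1h4c, 41 in Hist4h4, 35 in Hist1h3e, 16 in Hist2h2aa2, 21 in Hist2h2bb and 0 in Hist1h1e. In Hist1h3e both covered stretches of more than 3 bases included the letters CCAAT.

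A pair of stretches between the start sites of head-to-head H2A and H2B genes is shown on the plus strand with the same capitals. The first (Hist1h2ag and Hist1h2bj, chr13:22042950-22043197, 248 bases) was open in both libraries and had 37 bases in footprints of both, and the other (Hist1h2bq and Hist1h2ao, chr13:21810200-21810366, 167 bases) had no peak in either.
Hist1h2ag/Hist1h2bj: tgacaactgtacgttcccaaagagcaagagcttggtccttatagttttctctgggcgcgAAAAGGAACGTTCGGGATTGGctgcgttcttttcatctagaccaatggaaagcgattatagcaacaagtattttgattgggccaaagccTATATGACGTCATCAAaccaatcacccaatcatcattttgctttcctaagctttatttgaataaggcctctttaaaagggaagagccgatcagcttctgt
Hist1h2bq/Hist1h2ao: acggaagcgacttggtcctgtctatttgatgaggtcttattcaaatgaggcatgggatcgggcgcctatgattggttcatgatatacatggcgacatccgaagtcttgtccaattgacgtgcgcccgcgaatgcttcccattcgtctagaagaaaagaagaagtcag
Of the 67 members, 62 were matched to a promoter in the RefSeq table, and the others were Hist1h2bc, Hist1h3a, Hist1h3f, Hist2h2be and Hist2h4.

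Promoters of canonical histone genes were open in most cases, but their peaks were low, with the H4 genes as the exception. A gene was called open in a library when a peak of the authors' shorter list lay within 500 bp of one of its start sites. By this rule 47 of 67 members (70.1%) were open in both libraries, beside 54.2% of all protein-coding genes. In replicate 1, 48 members were open, beside 55.8% of all genes, and in replicate 2, 52 were, beside 57.1%. The deposited peak value has no stated scale, so each gene's highest promoter peak was ranked within its library among all genes with a promoter peak, and its percentile is the share of these genes at or below it. The median open member stood at percentile 20.4 in replicate 1 and 21.05 in replicate 2, with a median peak value of 2.40 and 1.84, while the median over all genes was 5.57 and 3.77. The low peaks mattered for the call: with peaks below the median of their list left out, 34 members (50.7%) remained open in both libraries, beside 47.5% of all genes. Most head-to-head neighbours share a peak, so members are not independent of each other.

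**Figure D1:**
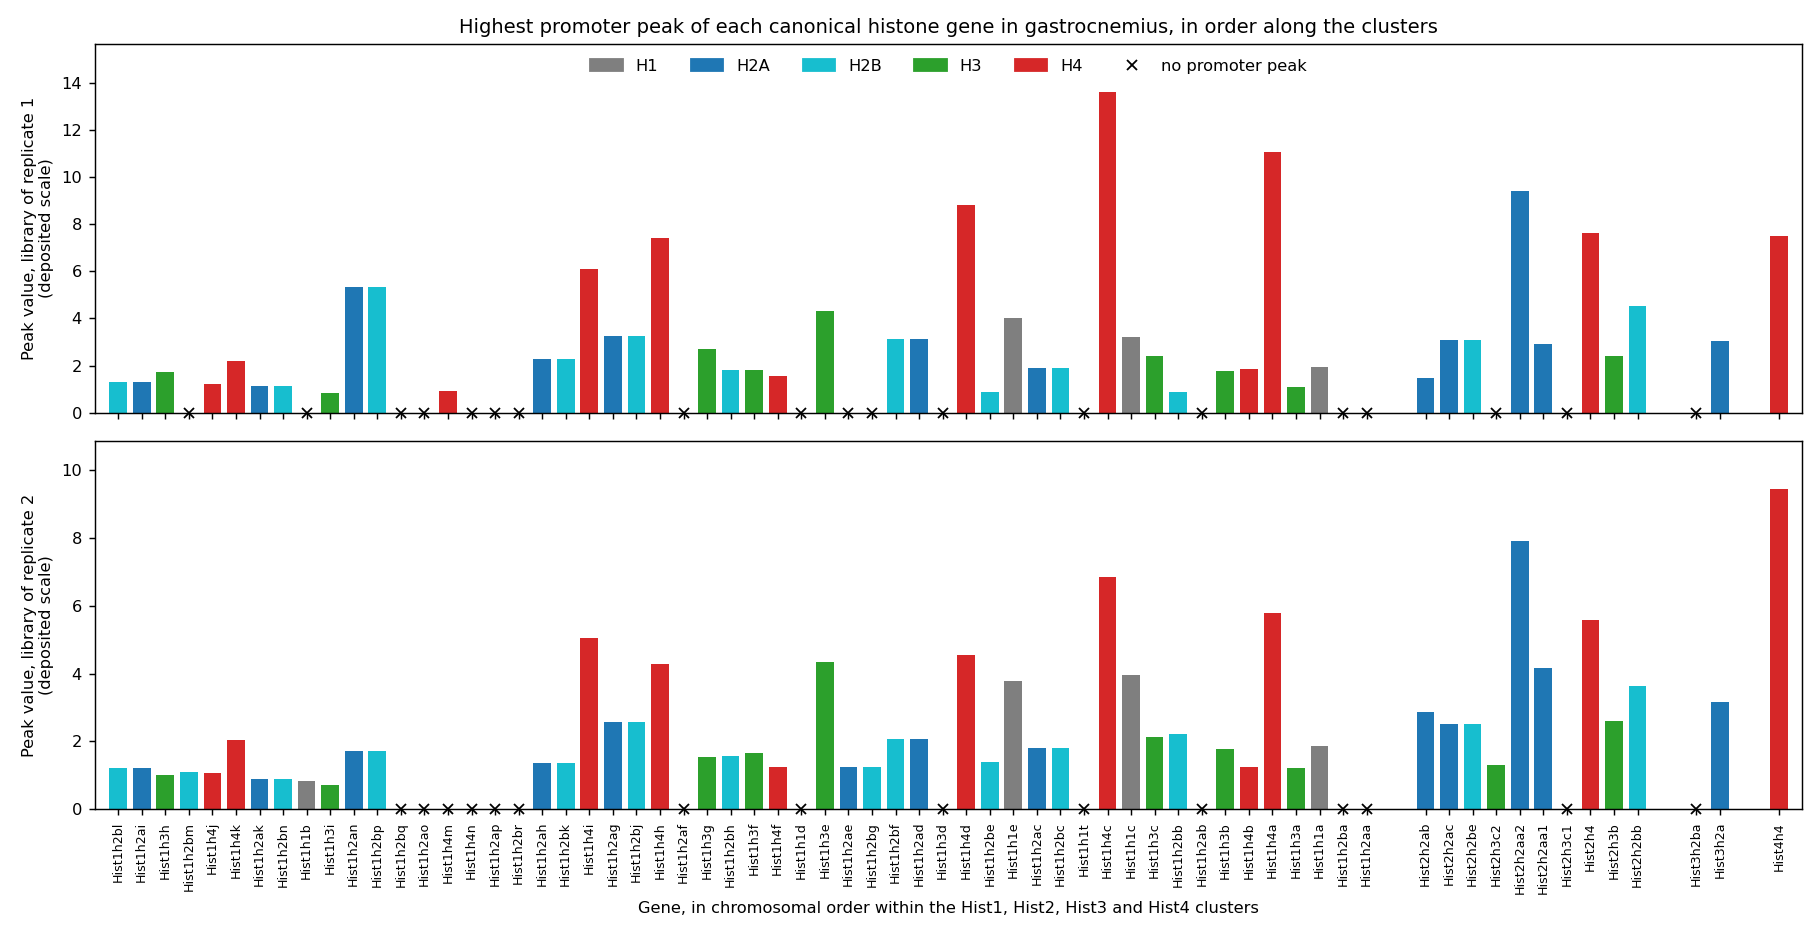
Peak value of the highest promoter peak (deposited scale) for each of the 67 canonical histone genes, in order along the Hist1, Hist2, Hist3 and Hist4 clusters, in replicate 1 above and replicate 2 below. Bars are coloured by histone class and crosses mark genes with no promoter peak: the tallest bars are H4 genes and Hist2h2aa2, and Hist1h4c reaches 13.6 and 6.85.

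H4 genes, whose product pairs with H3 in the nucleosome core, were open more often and had higher peaks than the other classes. Of 13 H4 genes 11 were open in both libraries, and their median percentile was 59.2 in replicate 1 and 60.7 in replicate 2. Of the 54 members of the other classes 36 were open in both (66.7%), with median percentiles of 19.6 and 20.3. At or above percentile 50 stood 7 of 12 open H4 genes in replicate 1 and 7 of 11 in replicate 2, against 1 of 36 and 4 of 41 open members of the other classes. Hist1h4c had peak values of 13.6 in replicate 1 and 6.85 in replicate 2, at percentiles 92.1 and 84.6, with the peak centre 46.5 and 16.5 bases before its start site. Hist1h4a had 11.1 and 5.80, at percentiles 83.6 and 75.1. Hist1h4d had 8.80 and 4.55, and Hist1h4h had 7.42 and 4.28. These 4 led the Hist1 H4 genes in replicate 1, and Hist1h4i, named after its values were seen, had 6.09 and 5.06 and passed Hist1h4d and Hist1h4h in replicate 2. Outside Hist1, Hist2h4 had 7.61 and 5.57, at percentiles 65.3 and 72.7. Hist4h4 had 7.52 and 9.45, at percentiles 64.7 and 96.0, the highest of all members in replicate 2. The H4 genes fell into high and low ones: Hist1h4k, Hist1h4b, Hist1h4f and Hist1h4j were open in both libraries at percentiles of 6.31 to 17.96 in replicate 1 and 8.65 to 24.1 in replicate 2. Hist1h4m was open in replicate 1 alone, with 0.937, and Hist1h4n in neither.

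**Figure D2:**
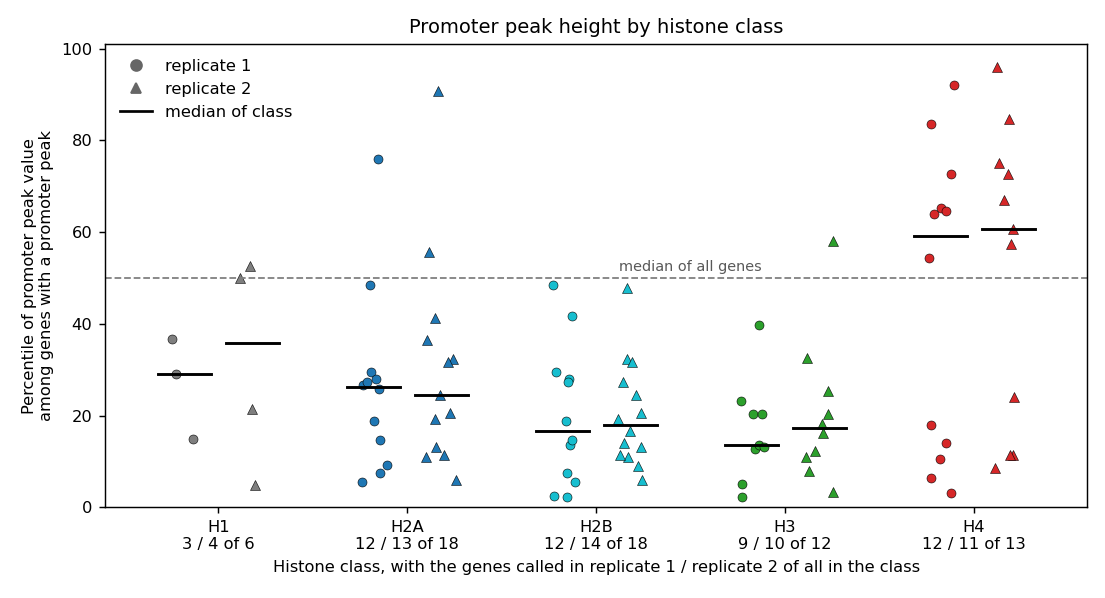
Percentile of each open canonical histone gene's promoter peak among all genes with a promoter peak, by histone class, for replicate 1 (circles) and replicate 2 (triangles), with the class median as a line and the median of all genes dashed. H4 genes split into a group above percentile 50 and a group at or below 24.1, and most other members lie below 50.

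H3 genes were open in both libraries in 9 of 12 cases, with low peaks. Hist1h3e had peak values of 4.31 and 4.33, at percentiles 39.7 and 58.1, the highest of the class in both libraries. Hist1h3c had 2.40 and 2.12, Hist1h3g had 2.70 and 1.54, and Hist1h3f had 1.82 and 1.67. The values of Hist1h3f belong to different peaks that do not overlap, chr13:23543401-23543580 in replicate 1 and chr13:23544421-23544720 in replicate 2. The former is also the highest promoter peak of Hist1h2bh in replicate 1, and the latter lies inside the Hist1h3f gene. Hist1h3b, Hist1h3h, Hist1h3a and Hist1h3i were open in both libraries at percentiles 2.19 to 13.2 in replicate 1 and 3.33 to 20.3 in replicate 2. In the Hist2 cluster Hist2h3b had 2.40 and 2.59. Hist2h3c2 was open in replicate 2 alone, with 1.301, and Hist2h3c1 and Hist1h3d were open in neither. The median H3 percentile was 13.6 in replicate 1 and 17.3 in replicate 2, the lowest of the classes in both libraries.

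H2A and H2B genes, whose products form the dimers that flank the H3 and H4 tetramer, were each open in both libraries in 12 of 18 cases. Of the 13 head-to-head pairs of members 12 joined an H2A and an H2B gene, with start sites 176 to 306 bp apart (median 259.5 bp). In 8 of these 12 pairs both genes were open and shared a peak in both libraries, so each of these peaks is 1 measurement for 2 genes. The shared peak was not always the same in both libraries. For Hist1h2ak and Hist1h2bn it was chr13:21753885-21754097 in replicate 1 and chr13:21753621-21753868 in replicate 2, which do not overlap. The pair Hist1h2ag and Hist1h2bj shared a peak of 3.27 in replicate 1 and 2.56 in replicate 2. The pair Hist1h2ad and Hist1h2bf shared 3.14 and 2.06. The peak of Hist1h2an and Hist1h2bp differed most in rank between the libraries among these 3 pairs, with 5.35 at percentile 48.4 in replicate 1 and 1.72 at percentile 19.2 in replicate 2. The pair Hist1h2ac and Hist1h2bc shared 1.91 and 1.81, and Hist2h2ac and Hist2h2be shared 3.09 and 2.51. The last 2 values belong to different peaks, chr3:96220841-96221020 in replicate 1 and chr3:96221121-96221500 in replicate 2. The latter does not lie between the start sites. Hist1h2ae and Hist1h2bg shared a peak of 1.25 in replicate 2 alone. The pairs Hist1h2bq with Hist1h2ao, Hist1h2ap with Hist1h2br, and the testis histone genes Hist1h2ba with Hist1h2aa had none in either library. Outside the pairs, Hist1h2bm was open in replicate 2 alone, with 1.08, and Hist1h2af and Hist1h2ab in neither. The remaining H2A genes open in both libraries (Hist1h2ah, Hist1h2ai and Hist1h2ak) stood at percentiles 5.53 to 18.8 in replicate 1 and 5.87 to 13.2 in replicate 2, and the remaining H2B genes (Hist1h2bh, Hist1h2bk, Hist1h2bl, Hist1h2bn, Hist1h2be and Hist1h2bb) at 2.31 to 18.8 and 5.87 to 27.2. Hist1h2be was ranked near the 5-prime end of its GENCODE model, on peaks that lay inside the Hist1h1e gene and did not overlap between the libraries. A RefSeq start site of Hist1h2be (23585970) lies 35154 bp further along the gene, with peaks of 1.36 in replicate 1 and 1.89 in replicate 2.

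The H2A gene with the highest peak was Hist2h2aa2, with 9.42 in replicate 1 and 7.92 in replicate 2, at percentiles 75.9 and 90.7. It was the only member outside H4 above percentile 50 in replicate 1. Hist2h2aa1, which lies on the opposite strand at chr3:96245497-96246082 and shares 66.1% of its promoter words with it, had 2.93 and 4.17. Hist2h2ab had 1.45 and 2.86, and Hist2h2bb, an H2B gene, had 4.54 and 3.62. In the small Hist3 cluster Hist3h2a was open in both libraries, with 3.03 and 3.17, while Hist3h2ba had no peak of the shorter list and 0.777 and 0.736 in the longer list. In all, 8 of 10 Hist2 members were open in both libraries, beside 37 of 54 Hist1 members.

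Linker histone genes were open in both libraries in 3 of 6 cases. Hist1h1e had 4.01 and 3.77, Hist1h1c had 3.23 and 3.96, and Hist1h1a had 1.94 and 1.87. Hist1h1b, which encodes H1.5, was open in replicate 2 alone, with 0.821. The testis linker histone gene Hist1h1t was open in neither. Hist1h1d was open in neither from its GENCODE start site (23553262), but its RefSeq start site (23555032) lies 1770 bp further along the gene, and there a peak of 1.31 in replicate 1 and 1.20 in replicate 2 was present (chr13:23554931-23555634). With RefSeq start sites for all genes, 43 of 62 members (69.4%) were open in both libraries, beside 53.9% of the 17492 genes so placed.

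The members differed from most genes in how often their promoter sequence recurs in the genome. Of the 67 members 57 had fewer than 90% of the 36-base words of the 1001-base promoter window at a single place in the genome, beside 14.4% of all genes. In 8 members, under 5% of the words were unique: Hist1h2bq, Hist1h2ao, Hist1h4m, Hist1h4n, Hist1h2ap, Hist1h2br, Hist2h3c1 and Hist2h3c2. None of the 8 was open in both libraries. Their windows are near copies of each other: Hist1h2bq and Hist1h2br shared 100% of their words, Hist1h4m and Hist1h4n 95.8%, and Hist2h3c1 and Hist2h3c2 94.7%. Among members with 5% or more unique words 47 of 59 (79.7%) were open in both libraries, and all 11 such H4 genes were. At 5 to 60% it was 16 of 19, and at 60 to 90% it was 25 of 30. At 90% or more it was 6 of 10 (60%), beside 60.5% of all genes at 90% or more. The 6 include Hist1h2be, whose uniqueness was measured from its GENCODE start sites, inside the Hist1h1e gene. By class the median share of unique words was 99.4% for H1, 50.7% for H2A, 52.1% for H2B, 63.8% for H3 and 78.3% for H4 genes. How the authors treated reads that align to several places is not given in the sources used here. The part of this treatment in these counts, and in peak height by class, was not tested.

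**Figure D3:**
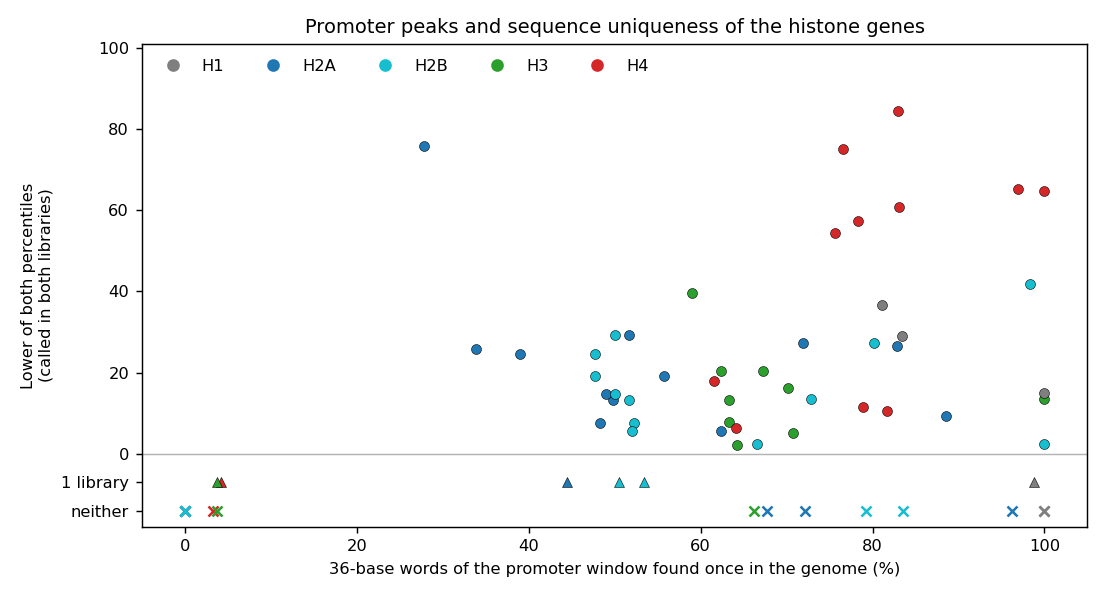
Share of 36-base words of the promoter window found once in the genome, against the lower of both libraries' percentiles for each canonical histone gene open in both libraries, with genes open in 1 library or in neither on separate rows. Colours mark histone class: at the far left 8 genes have under 5% unique words and none of them is open in both libraries.

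The libraries ranked the members alike in broad terms. Over the 47 members open in both, the Spearman correlation of the percentiles was 0.818, beside 0.904 over 11849 genes, as a description only since neighbours share peaks. The median absolute difference between the libraries was 6.10 percentiles for members and 7.02 for all genes. In 43 of the 47 a promoter peak of 1 library overlapped one of the other, beside 11740 of the 11849 genes, a larger share. In 38 (80.9%) the highest peaks overlapped, beside 95.1% of all genes open in both. Of the 47, 34 stood at a higher percentile in replicate 2 (72.3%) and 13 in replicate 1, beside 51.6% of all genes higher in replicate 2. Among members 1 was open in replicate 1 alone and 5 in replicate 2 alone, beside 1.59% and 2.88% of all genes. The authors' longer lists added calls: 52 members were open in both libraries there, beside 59% of all genes.

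Base composition set the members apart from the average promoter. From 250 bases before to 50 bases after the RefSeq start site, the median ratio of observed to expected CpG was 0.740 in members and 0.567 in all coding promoters, and the median GC content was 45.3% in members and 56.3% in all coding promoters. Beside the 70.1% of members open in both libraries stood 84.2% of other genes whose CpG ratio lay within the members' quartiles, both measured from GENCODE start sites. With GC content within the members' quartiles as well, 77.7% of 452 genes were open in both, where the median open member stood at percentile 20.4 in replicate 1 and 21.05 in replicate 2 and the median open gene of this group at 40.1 and 43.4.

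Letters known from histone promoters, and GGTCCG, which was chosen after the footprints had been seen, were searched on both strands in the same windows of 62 members and of 21263 coding promoters. A match is a description, not a bound site. TATAAA, the letters of the TATA box, was in 35 members (56.5%) and 12.6% of all coding promoters. It was counted at any position, such as 250 bases before the start site in Hist1h4f and after it in Hist1h4a. The count is therefore not one of TATA boxes at a set distance. CCAAT, bound by NF-Y, was in 53 members (85.5%) and 38.2% of all coding promoters. It was in every H1, H2A, H2B and H3 promoter searched and in 3 of 12 H4 promoters. The octamer ATTTGCAT was in 14 members (22.6%), 7 H2A and 7 H2B, and in 1.66% of all coding promoters, and in a head-to-head pair both genes can hold the same match. AAACACA, the H1 box, was in 9 members (14.5%), among them 5 of 6 H1, 2 H2A and 2 H2B promoters, and in 6.15% of all coding promoters. The E2F letters TTTCGCGC were in 9 members (14.5%), all H2A or H2B, and in 0.451% of all coding promoters, while TTTGGCGC was in 0 members and 0.635% of all coding promoters. Head-to-head pairs hold most of the TTTCGCGC matches and many CCAAT matches, with the same letters counted under both genes. GGTCCG was in 11 of 12 H4 promoters, 1 of 16 H2B and 1 of 10 H3 promoters and 10.47% of all coding promoters.

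A footprint lay inside the promoter peak in both libraries in 45 of 67 members, beside 53% of all genes, and 11 of the 45 were H4 genes. Among genes open in both libraries these were 45 of 47 members and 11578 of 11849 genes, so members had no excess of footprints beyond their peaks. GGTCCG was chosen from footprints in these same H4 promoters, so its counts describe them and support nothing further. Of the 9 GGTCCG matches in H4 promoters open in both libraries, 7 touched a footprint in both (77.8%). In all open coding promoters 14.3% of 1969 matches did, and in those whose peaks stood at or above the median height 19.7% of 981 did. The 7 were those of Hist1h4c, Hist1h4d, Hist1h4i, Hist1h4h, Hist1h4b, Hist1h4f and Hist4h4. The match in Hist1h4k touched a footprint in replicate 2 alone and that in Hist1h4j in neither. Of the 8 TTTCGCGC matches in open member promoters 6 touched a footprint in both libraries, beside 30.1% of 83 in all open coding promoters, but head-to-head pairs counted the same letters under both genes. For CCAAT it was 16 of 100 in members (16.0%) and 20.7% of all, for TATAAA 6 of 27 (22.2%) and 15.2%, for the octamer 0 of 8 and 4.55%, and for the H1 box 0 of 3 and 5.16%. Many CCAAT matches of head-to-head pairs were likewise counted under both genes.

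By position, footprints of both libraries covered 29.5% of the bases from 100 to 1 before the start site in the 10 H4 promoters open in both libraries. The share was 8.25% in H1, 7.42% in H2A, 4.6% in H2B and 11.6% in H3 promoters. It was 16.8% in all 11001 open coding promoters and 24.3% in the 5016 at or above the median height. Peak height moved with it, since open H4 genes had the higher peaks, and its part was not tested. In H4 promoters the share was highest 23 bases before the start site, where 70% of the 10 promoters had a footprint of both libraries. In the 100 bases upstream of these it was 5.40% in H4 promoters and 14.8% in coding promoters at or above the median height. All these positions depend on RefSeq start sites, which do not line up the H4 promoters. The first base of GGTCCG lay at -47 in Hist1h4d, -32 in Hist1h4k and Hist4h4, -5 in Hist1h4h and 7 in Hist1h4b, with the start site as 1. Hist1h4a, which has no GGTCCG in its window, had 91 of 300 bases in footprints of both libraries, the most of the H4 genes, and Hist1h4c had 66.

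**Figure D4:**
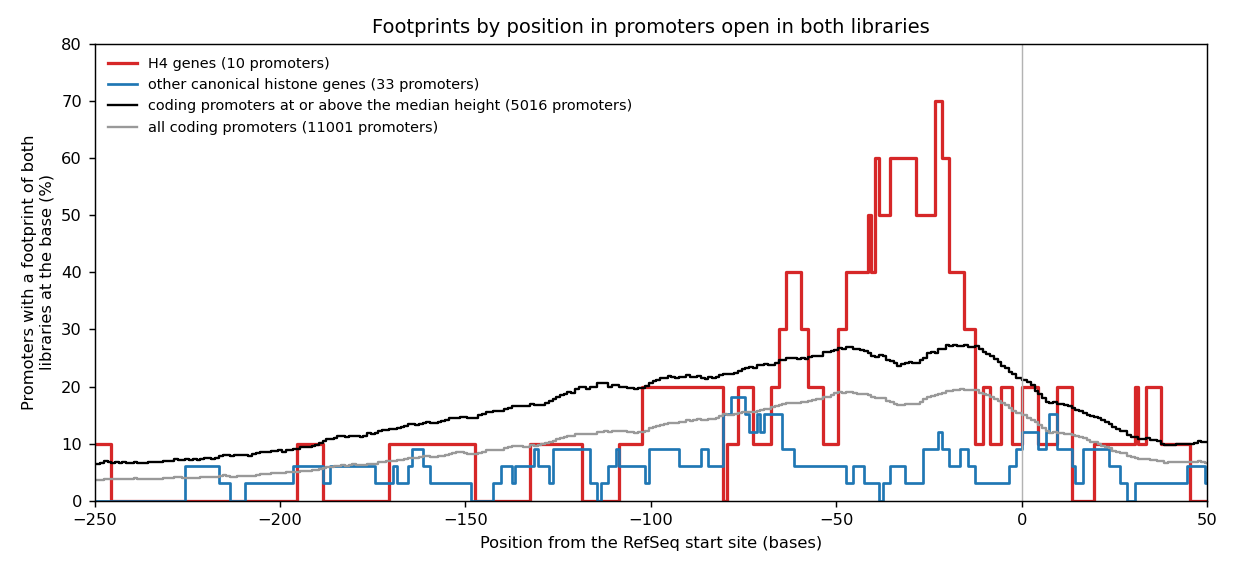
Percentage of promoters open in both libraries that have a footprint of both libraries at each base, from 250 bases before to 50 bases after the RefSeq start site, for H4 genes, other canonical histone genes, coding promoters at or above the median height, and all coding promoters. The H4 line reaches 70% at 23 bases before the start site, while the line of the other histone genes runs lower. RefSeq start sites do not line up the GGTCCG letters of the H4 promoters.

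The deposited false discovery rate tables list runs of bases cut more than background at a q-value below 0.05. The median member had 31.6% of the promoter window's bases listed in replicate 1 and 54.2% in replicate 2, beside 33.5% and 55.8% for all genes. No base was listed for 13 members in replicate 1 (19.4%) and 9 in replicate 2 (13.4%), beside 38.5% and 36.4% of all genes. The member lists differed by class: the median was 25.3% and 29.02% for H3 genes and 41.6% and 66.5% for H1 genes. H4 genes had 39.3% and 54.2%, so the classes ranked differently on this measure than on peak height.

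Open regions were denser within most cluster spans than over the genome, and many of them were promoter peaks of members. The Hist1 genes lie in a first stretch of 23 members (chr13:21715763-22043676), a second of 29 (chr13:23531050-23764406) and the testis pair alone (chr13:23933773-23934851). Regions with a peak in both libraries numbered 7.93 per 100 kb in the first stretch, 11.6 in the second, 19.9 in the Hist2 cluster and 25.3 in the Hist3 cluster, against 1.20 over the genome. The Hist2 value rests on 10 regions in 50.3 kb, 9 of them within 500 bp of a member's start site. The Hist3 value rests on 2 regions in 7.91 kb, both near a member. Spans run from the first to the last member, so these densities largely restate the promoter calls. Between the first and second Hist1 stretches, where 2 of 40 other coding genes (5%) were open in both libraries, the density was 1.95. Between the second stretch and the testis pair, where 0 of 5 other coding genes were open in both libraries, it was 0. The span of the testis pair also had a density of 0. In the second stretch 19 of 27 such regions lay within 500 bp of a member's GENCODE start site and 7 over 500 bp from every GENCODE start site. Of these 7, 5 lay inside the gene models of Hist1h1c, Hist1h1d or Hist1h2be, and 2 of the 5 were within 500 bp of a RefSeq start site of Hist1h1d or Hist1h2be. In the first stretch 9 of 26 lay near a member's start site and 14 over 500 bp from every start site, none of them inside a protein-coding gene. Of these 14, 11 lay within 500 bp of a tRNA gene of the RefSeq annotation, which lists 31 tRNA genes in that stretch. The highest of them (chr13:22028761-22028960) had 6.57 in replicate 1 and 8.54 in replicate 2, 6707 bp from the start site of Hist1h2ah. In the second stretch, which has 0 listed tRNA genes, the highest of the 7 (chr13:23739561-23740100) had 7.24 and 3.92 and lay inside Hist1h1c, 1022 bp from its start site. In the Hist2 cluster 1 region over 500 bp from every start site (chr3:96262281-96262520) had 4.07 and 1.95 and lay inside Hist2h4, 910 bp from its start site.

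Canonical members other than H4 stood at median percentiles of 19.6 in replicate 1 and 20.3 in replicate 2, below the medians of related gene lists, and the H4 genes at 59.2 and 60.7. Of 13 replacement and variant histone genes 10 were open in both libraries, at a median percentile of 76.6 in replicate 1 and 74.5 in replicate 2. H2afv, which encodes H2A.Z.2, had 17.3 and 9.84, H2afj 14.3 and 6.76, H2afz, which encodes H2A.Z.1, 14.2 and 6.24, and H3f3a, which encodes H3.3, 9.74 and 6.34. H2afy2 was open in replicate 2 alone, and the germ-line genes H1foo and Hils1 in neither. Of the 21 genes listed under histone gene transcription and mRNA processing, Ern1 is not known for either role but was kept in the counts. All 21 were open in both libraries, at median percentiles of 78.6 and 82.7. They included Npat with 17.8 and 7.93, Nfya, an NF-Y subunit, with 16.4 and 12.1, Cpsf3, the endonuclease that cuts histone mRNA ends, with 15.3 and 9.88, and Cramp1l with 13.4 and 7.85. Hinfp, whose product binds H4 promoters, had 14.98 and 6.68; it was named after its values were seen.

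All 10 histone chaperone genes were open in both libraries, with Hjurp at 36.5 and 21.5, Npm1 at 16.0 and 8.60, Daxx at 13.4 and 7.56 and Asf1b at 9.99 and 5.39. All 24 genes of S phase and proliferation were open as well, at median percentiles of 65.7 and 63.2, and the 4 with the highest lower percentile of both libraries were Ccne1 with 14.6 and 10.7, Mcm5 with 13.99 and 10.2, Mcm7 with 12.9 and 8.83 and Mcm4 with 10.504 and 8.10. All 10 skeletal muscle markers were open in both libraries, at median percentiles of 35.4 and 22.3. At or above percentile 50 stood 4 of them in replicate 1 and 1 in replicate 2. The 7 proliferation markers, all of them among the S phase genes above, were open in both libraries too. In contrast 0 of 4 erythroid, 0 of 4 myeloid and 0 of 4 lymphocyte markers were, beside 54.2% of all genes. The lists differ in median CpG ratio: 0.875 for proliferation, 0.365 for muscle, 0.304 for lymphocyte, 0.195 for erythroid and 0.066 for myeloid markers. The part of base composition in these counts was not tested. Epor was open in replicate 1 alone (1.38), Lyz2 in replicate 2 alone (0.552), and of 3 germ cell markers Dazl was open in both.

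**Figure D5:**
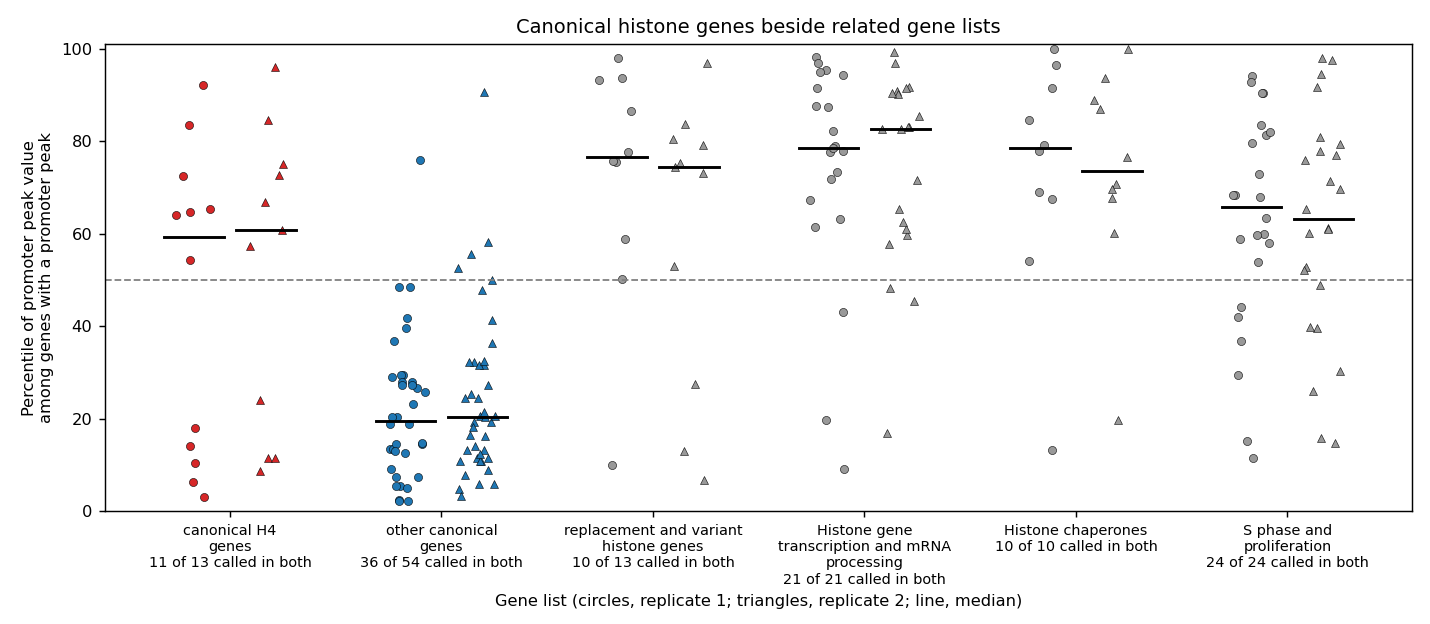
Percentile of the promoter peak in replicate 1 (circles) and replicate 2 (triangles) for canonical H4 genes, the other canonical histone genes, replacement and variant histone genes, genes of histone gene transcription and mRNA processing, histone chaperones and S phase genes, with the median of each list as a line. Below each list stands the number open in both libraries. Canonical genes other than H4 have the lowest medians, 19.6 and 20.3.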

How the data were processed

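DNase-seq was done on gastrocnemius nuclei in 2 libraries, labelled as separate biological replicates but with 1 donor ID. The authors deposited for every library, on assembly mm10 per the labels, a shorter and a longer list of peaks with a signal value whose scale is not stated, a list of footprints with a score that is 0.01 on every line and was used by position only, and a table of q-values (false discovery rates) of runs of bases. Replicates were not pooled, per the deposited file listing. For the aligner and the callers, names and versions were not given in the sources used here, and no depth in reads was given. The shorter lists held 50760 peaks in replicate 1 and 49230 in replicate 2, and 155037 and 234134 footprints were listed.

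Start sites came from coding transcripts of the GENCODE basic set, release 21, for 21851 genes. Overlap was at least 1 bp. Sequences, motif letters and tRNA genes came from RefSeq (GRCm38.p6), and uniqueness of 36-base words from its primary assembly. Computations used Python 3.11.15, numpy 2.4.6, pandas 2.3.3 and numba 0.67.0, and the promoter calls were tested on simulated data, where 200 of 200 genes with a peak inside the window and 0 of 200 with a peak outside it were called. Both libraries formed 1 group, so no test was run. The members, lists and motifs were chosen with earlier results of these data known. Named were up to 4 members per cluster and class by the lower percentile, every member called in 1 library alone, every Hist2, Hist3 and Hist4 member, and up to 4 genes per comparison list. Alternatives were the longer lists, windows of 250 and 1000 bp, higher peaks alone, other start sites, overlapping peaks, merged peaks, unique promoters and each library alone.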

Additional observations from a re-analysis of the deposited data

How the results depend on the processing

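Of 155 alternative values, 136 stayed within the spread of the libraries or within 1.5 times the count, and 19 did not. The 136 overstate stability, since some could not move and the cluster and class counts recount the same genes. Merging overlapping peaks cannot change a call. Leaving out members under 5% unique words, a setting not planned beforehand, could not change the counts, since none of them was open in both libraries. The count of members open in both libraries was 45 to 52 under the other windows, lists, merged peaks and GENCODE start sites, 43 of 62 with RefSeq start sites, 48 to 52 with each library alone, 34 with peaks at or above the median of their list, and 43 when any promoter peaks had to overlap. With at least 90% unique words, which leaves 10 members, it was 6, of which Hist1 gave 3, Hist2 2 and Hist3 0, and by class H1 gave 1, H2A 0, H2B 2, H3 1 and H4 2. The longer lists gave 2 Hist3 members. The median percentile over both libraries was 20.7, and 20.4 to 21.05 with each library alone. It was 26.0 with the longer lists, 21.5 and 24.6 with windows of 250 and 1000 bp, 19.5 with peaks at or above the median, 21.3 from the 5-prime end of the gene, 24.5 with at least 90% unique words and 20.002 with RefSeq start sites, the last chosen after seeing the data. The share of bases in listed runs was 42.9% over both libraries, 31.6% to 54.2% with each library alone, 63.8% within 250 bp and 24.2% within 1000 bp. No paired analysis was possible because there is 1 group of 2 libraries. With 2 libraries of unknown depth, a missing peak is not evidence of closed chromatin.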
